A study of Mus musculus with 36 samples.

Results

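The genes described here define astrocytes or mark their reactive state, and they are 10 of the 56980 gene rows of a count table of mouse brain RNA. They were chosen by name: Aqp4, S100b, Slc1a2, Slc1a3 and Aldh1l1 as 5 identity genes, and Gfap, Vim, Serpina3n, Osmr and Cd44 as 5 reactivity genes. All 10 passed the filter on low counts and were among the 25601 genes tested. The names were picked with earlier results of these data known, so the choice cannot be called independent of the measured values.

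Astrocytes take up released glutamate, buffer potassium, move water at the vessel wall and supply neurons with metabolites. When tissue is injured or stressed, or receives cytokines of the interleukin 6 family, they can become reactive: intermediate filament genes and secreted acute phase genes rise, in part through the transcription factor STAT3. Astrogliosis is a known feature of lesions in the Ndufs4 knockout mouse, a model of Leigh syndrome, where brainstem, cerebellum and olfactory bulb are the regions best known to be affected.

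The series sequenced polyA RNA of 36 brain samples from mice aged 37 to 45 days. Genotype was Ndufs4 knockout (KO) or wild type (WT). By gavage, on 3 consecutive days, the mice received either vehicle or CP2, a small molecule that inhibits complex I of the mitochondrial respiratory chain. Ndufs4 encodes a subunit of complex I, so the KO CP2 groups combined the gene defect and the inhibitor. Each title also held the letter F or M, which gave 8 groups: KO vehicle F, KO CP2 F, WT vehicle F, WT CP2 F, KO CP2 M and WT CP2 M with 5 samples each, and KO vehicle M and WT vehicle M with 3 each. The labels gave no strain, no construct of the deletion, no dose of CP2 and no composition of the vehicle. They did not say that samples were separate animals beyond the title numbers (L201 and so on), so p-values measured the spread between these samples.

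Depth was high enough that counting error was small for every member: total gene counts ran from 46124548 to 88559920 per sample, and the lowest count of any member in any sample was 166, for Cd44. Ndufs4 itself was well above 0 in KO and its KO and WT ranges met at the edge, with 27.4 to 39.1 CPM (counts-per-million, on TMM-scaled library sizes) in KO samples and 38.9 to 62.8 CPM in WT samples. The labels do not name the deleted exons, so a count over the whole gene does not check the deletion itself. Xist was above 438 CPM in every F sample, and the Y-linked Ddx3y was above 61 CPM in every M sample and at most 0.214 CPM in F samples. The M sample L291 (KO CP2 M) also held 47.3 CPM of Xist. It and L266 of the same group, which earlier results had set apart, were left out together as an alternative. The design text named hippocampus and cortex and the tissue label was brain; marker sums were 186 to 388 CPM for cortex, 46.3 to 179 CPM for hippocampus and 38.5 to 256 CPM for striatum. In all, 5 samples held more than 20 CPM of cerebellum or brainstem markers: L201 (268 CPM cerebellum), L233 (51.5 CPM cerebellum) and L234 (79.1 CPM brainstem) of KO CP2 F, L298 (44.5 CPM brainstem) of KO CP2 M and L278 (32.9 CPM brainstem) of WT vehicle F. Calls are given with and without these samples. Of the 4 brainstem markers, Hoxa5, Hoxb5 and Hoxc4 had medians of 0 and reached at most 0.592, 2.88 and 1.47 CPM. High brainstem sums here and below therefore rested almost wholly on 1 gene, Slc6a5 (at most 79.1 CPM). The cut of 20 CPM does not mean that the other samples were free of these markers. The samples are brain pieces of mixed cells, so fewer cells of a type and less RNA per cell cannot be told apart.

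Per exon length, Slc1a2 and Gfap led the members. Mean levels over the 36 samples, in CPM per kilobase of exon, were 218 for Slc1a2, 131 for Gfap, 86.9 for S100b, 66.9 for Slc1a3 and 31.6 for Aqp4. Aldh1l1 (16.3), Vim (15.8) and Serpina3n (15.5) formed a middle tier on the same scale. Cd44 (0.916) and Osmr (0.464) were low but counted in every sample. All 5 identity genes were counted in every sample, which in pieces of mixed cells does not show which cells made them.

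The reactivity genes Gfap, Vim and Serpina3n were uneven among KO samples: some KO samples were several times above every WT sample and others lay within the WT range. Gfap encodes the main intermediate filament of astrocytes. Its 18 WT samples ran from 242 to 587 CPM (median 334), and its 18 KO samples from 255 to 1761 CPM (median 615). The highest WT sample was L278 of WT vehicle F, which held 32.9 CPM of brainstem markers. Next among WT samples was L257 of WT CP2 F at 477 CPM of Gfap. In KO vehicle F the 5 values were 491, 456, 274, 633 and 646 CPM, and in KO vehicle M the 3 values were 1761, 639 and 255 CPM. In KO CP2 F they were 499.6, 409, 289.6, 597 and 1605 CPM, and in KO CP2 M they were 787, 549.7, 1735, 646 and 1328 CPM. In all, 10 of the 18 KO samples lay above the highest WT sample, and 4 of them exceeded 1000 CPM: L234 in KO CP2 F, L292 and L299 in KO CP2 M and L310 in KO vehicle M. The lowest KO sample of Gfap, L322, sat in the same group as the highest, L310.

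Vim encodes vimentin, a filament protein of immature and reactive astrocytes that endothelial, mural and ependymal cells also make. It ran from 38.3 to 72.4 CPM in WT and from 44.7 to 297.6 CPM in KO, and 12 of 18 KO samples lay above every WT sample. Its 3 KO vehicle M values were 297.6, 79.7 and 54.5 CPM, against 53.0, 44.8 and 49.8 CPM in WT vehicle M. All 3 KO values there were above all 3 WT values, the lowest of them by a small margin. In KO CP2 M the 5 values were 84.3, 84.5, 189, 77.3 and 126 CPM, against 38.3 to 49.4 CPM in WT CP2 M, with no overlap.

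Serpina3n, a secreted serine protease inhibitor of the acute phase response, had the widest range of the 10 members. It ran from 12.5 to 25.0 CPM in WT and from 14.5 to 181 CPM in KO, where 11 of 18 samples lay above every WT sample. In KO vehicle M the 3 values were 181, 37.6 and 18.9 CPM, and in KO CP2 M the 5 values were 26.6, 36.5, 113, 30.8 and 79.8 CPM. KO CP2 F fell into 2 high samples, L233 with 63.8 and L234 with 67.3 CPM, and 3 samples of 14.5 to 23.6 CPM inside the WT range.

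**Figure D1:**
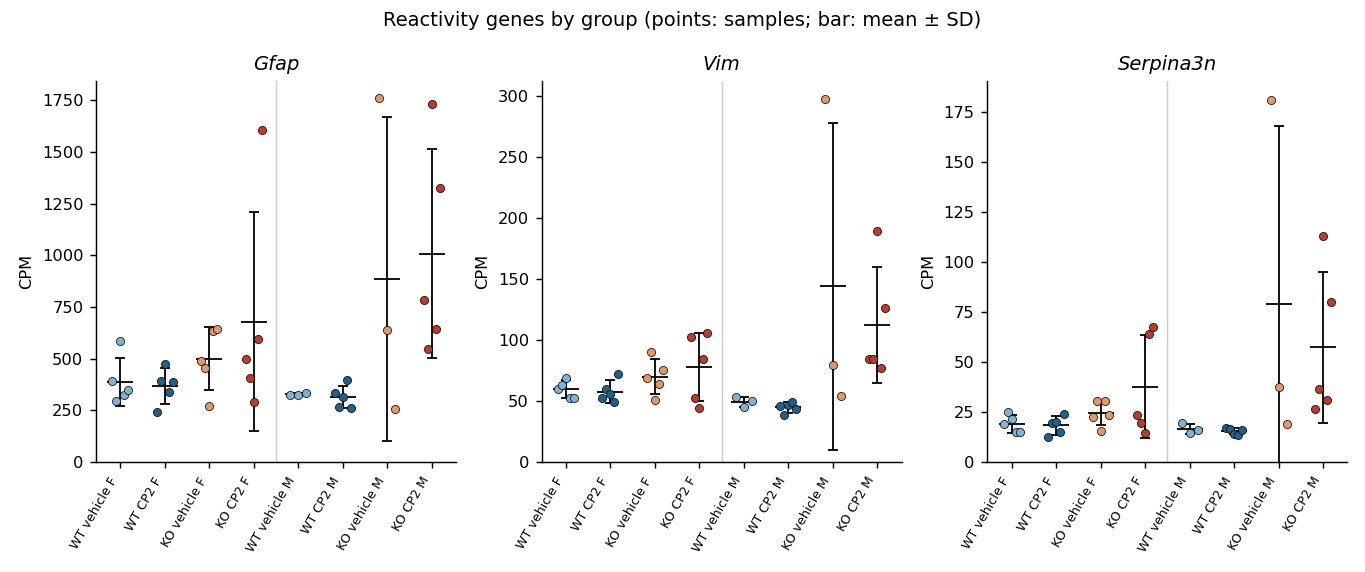
Gfap, Vim and Serpina3n in CPM (vertical axes, starting at 0) in the 8 groups, with 1 point per sample, horizontal bars at the mean and error bars of 1 SD (cut at 0). WT groups lie in a narrow band for each gene, while single KO samples such as L310 (1761 CPM of Gfap, 297.6 CPM of Vim, 181 CPM of Serpina3n) lie far above it.

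The 3 genes were high in largely the same KO samples. There were 8 KO samples above every WT sample in all of Gfap, Vim and Serpina3n: L233, L234, L266, L292, L298, L299, L310 and L319. A total of 13 of the 18 were above every WT sample in at least 1 of them. The 5 that were above in none were L216 and L227 of KO CP2 F, L246 and L281 of KO vehicle F and L322 of KO vehicle M, so each of these 3 groups held samples of both kinds. Relative to the mean, the SD over 18 samples was 65.7% in KO and 23.1% in WT for Gfap, 62.6% and 16.8% for Vim, and 91.6% and 20.7% for Serpina3n. The difference in spread was not tested. For Slc1a3 the order was the other way, 7.94% in KO and 9.78% in WT.

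Of the 4 samples with over 1000 CPM of Gfap, L234 carried brainstem markers at 79.1 CPM. The other 3 lay under the threshold of 20 CPM: L292, L299 and L310 held 7.67, 5.38 and 2.92 CPM of brainstem markers and 1.41, 1.68 and 0.782 CPM of cerebellum markers. In brainstem markers these 3 M samples were above every WT M sample. Those held 0.0442 to 1.67 CPM in WT CP2 M and 1.47 to 1.745 CPM in WT vehicle M, while WT F samples reached 32.9 CPM. Of the other KO samples high in Gfap, Vim and Serpina3n, L298, L319 and L266 held 44.5, 7.47 and 7.07 CPM of brainstem markers. L233 held 51.5 CPM of cerebellum and 2.86 CPM of brainstem markers. The 5 KO samples that were not high in any of the 3 genes held 15.5 (L246), 12.9 (L216), 3.92 (L322), 1.70 (L227) and 0.817 CPM (L281) of brainstem markers. Their cerebellum markers reached at most 1.32 CPM (L281). The part of brain region in the values of these genes was not tested.

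**Figure D2:**
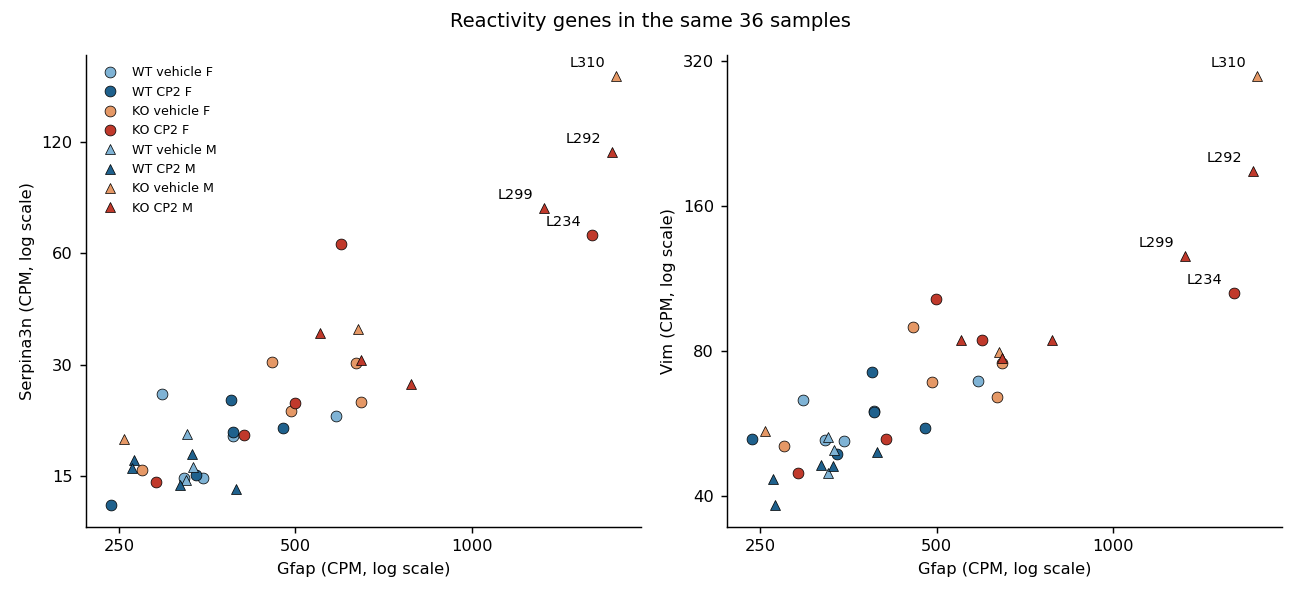
Serpina3n (left) and Vim (right) against Gfap in the same sample, all in CPM on log axes, with circles for F, triangles for M, blue for WT and orange or red for KO. The 4 named samples, with more than 1000 CPM of Gfap, are also high in the other gene, and the WT points stay in the lower left corner.

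The sequence before the annotated start is shown for the 3 genes that were high in largely the same samples, for S100b, which moved separately, and for Slc1a3, whose level hardly varied. The 250 bases before each start come from RefSeq on GRCm38.p6, not the GRCm39 build of the counts; 9 of the 10 members matched an entry. The search covered 3 motifs on both strands: TTCNNNGAA, the core bound by STAT factors, TGANTCA, the core bound by AP-1, and TATAAA, the TATA box. The intervals are chr11:102897201-102897450, minus strand for Gfap, chr2:13574061-13574310, plus strand for Vim, chr12:104406458-104406707, plus strand for Serpina3n, chr10:76253586-76253835, plus strand for S100b and chr15:8710808-8711057, minus strand for Slc1a3. Each is written in the direction of transcription and ends at the last base before the start, with motif matches in capitals.
Gfap: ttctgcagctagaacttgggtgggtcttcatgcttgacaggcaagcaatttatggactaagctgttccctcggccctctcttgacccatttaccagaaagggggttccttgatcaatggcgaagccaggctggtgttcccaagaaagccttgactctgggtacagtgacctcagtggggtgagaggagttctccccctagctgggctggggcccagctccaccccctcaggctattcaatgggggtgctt
Vim: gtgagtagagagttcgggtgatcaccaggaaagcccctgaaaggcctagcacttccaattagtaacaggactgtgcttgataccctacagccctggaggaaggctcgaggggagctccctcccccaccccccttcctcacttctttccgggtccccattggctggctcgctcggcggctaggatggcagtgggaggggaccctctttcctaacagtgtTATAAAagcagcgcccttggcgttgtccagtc
Serpina3n: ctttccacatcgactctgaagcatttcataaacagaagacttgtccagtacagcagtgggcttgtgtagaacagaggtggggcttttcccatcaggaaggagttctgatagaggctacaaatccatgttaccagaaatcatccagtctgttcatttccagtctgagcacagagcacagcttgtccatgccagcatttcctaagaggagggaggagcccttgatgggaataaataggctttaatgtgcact
S100b: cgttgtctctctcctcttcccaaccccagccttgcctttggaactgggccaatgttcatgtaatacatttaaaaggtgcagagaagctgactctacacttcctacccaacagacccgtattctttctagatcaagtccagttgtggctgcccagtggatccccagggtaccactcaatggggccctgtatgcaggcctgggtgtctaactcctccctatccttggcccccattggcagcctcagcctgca
Slc1a3: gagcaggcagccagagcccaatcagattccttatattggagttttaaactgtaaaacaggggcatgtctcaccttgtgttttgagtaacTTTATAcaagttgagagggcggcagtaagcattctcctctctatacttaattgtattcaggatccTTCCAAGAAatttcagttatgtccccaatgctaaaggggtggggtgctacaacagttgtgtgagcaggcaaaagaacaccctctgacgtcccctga
In Vim the capitals mark TATAAA at 32 to 27 bases before the start. In Slc1a3 they mark TATAAA on the other strand (161 to 156 bases before the start) and TTCNNNGAA (96 to 88 bases before the start). No match to the 3 motifs was in the windows of Gfap, Serpina3n and S100b, nor in those of Slc1a2, Aldh1l1, Osmr and Cd44. Over 32851 promoters of the same length, 7.02% held TTCNNNGAA, 6.75% TGANTCA and 12.4% TATAAA. GC content was 55.6% for Gfap, 58.4% for Vim, 46.4% for Serpina3n, 53.6% for S100b and 44.8% for Slc1a3, around the median of 52.4% over all promoters. These matches describe letters in a window; no binding was measured.

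With vehicle, Vim and Serpina3n were higher and S100b was lower in KO than in WT on average over F and M. Fold changes here are log2 values from edgeR's quasi-likelihood test, and a call is a Benjamini-Hochberg adjusted p under 0.05 over all 25601 genes. Serpina3n was 1.30 ± 0.39 (SE) higher (adjusted p = 0.039), Vim was 0.89 ± 0.26 higher (adjusted p = 0.0335) and S100b was 0.40 ± 0.10 lower (adjusted p = 0.011) by that test. Gfap was 0.90 ± 0.34 higher without passing (adjusted p = 0.109), and Osmr (0.42, adjusted p = 0.12) and Cd44 (0.44, adjusted p = 0.263) did not pass either. Without L278, the WT vehicle sample with brainstem markers, and the 4 such CP2 samples, these calls held and Gfap was called too (0.997, edgeR adjusted p = 0.0419). The 3 members called of 10 stand beside 6.67% of all genes called in this contrast. The Vim and Serpina3n calls rested on L310: without it their values were 0.34 (adjusted p = 0.323) and 0.56 (adjusted p = 0.348) in edgeR. Both also missed the threshold without L295 or L296 of WT vehicle F, or L285, L300 or L303 of WT vehicle M, and Serpina3n without L252, L279 or L282 as well, with values of 0.86 or more in each of those fits. S100b failed without L300 (edgeR adjusted p = 0.0507).

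Neither letter alone gave a call for vehicle in edgeR. In F, where 4.96% of all genes were called, 0 of 10 members passed; 2 had an unadjusted p under 0.05 and DESeq2 also called 0. In M, where 0.516% of all genes were called from 3 samples a group, 0 of 10 passed and 4 had an unadjusted p under 0.05. DESeq2 called 3 in M: S100b lower, Vim and Serpina3n higher. The M values were larger than the F values for Gfap (1.43 against 0.36), Vim (1.55 against 0.24) and Serpina3n (2.25 against 0.36), but the difference between F and M was not called for any member. In that test 0.102% of all genes were called, and the members with unadjusted p under 0.05 were Vim and Serpina3n (edgeR adjusted p = 0.443 and 0.472). DESeq2 also called 0 members for it.

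Under CP2, 4 of the 5 reactivity genes and S100b were higher in KO than in WT. Averaged over F and M, Serpina3n was 1.46 ± 0.33 higher (edgeR adjusted p = 0.00402), Gfap 1.28 ± 0.30 (adjusted p = 0.00421) and Vim 0.88 ± 0.22 (adjusted p = 0.00867). Cd44, the hyaluronan receptor at the cell surface of reactive astrocytes and of immune cells, was 0.62 ± 0.20 higher (edgeR adjusted p = 0.0377). S100b was 0.30 ± 0.08 higher (edgeR adjusted p = 0.0159). These 5 of 10 members stand beside 11.6% of all genes called. Osmr, the receptor subunit for oncostatin M, was 0.14 ± 0.14 higher and was not called (edgeR adjusted p = 0.616).

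In this comparison all 3 cerebellum markers and 1 of 4 brainstem markers were themselves called higher in KO. Leaving out the 5 samples with more than 20 CPM of these markers ended all 5 calls, with 2 samples (L216 and L227) left in KO CP2 F. Gfap then stood at 0.87 (edgeR adjusted p = 0.0576), Vim at 0.60 (adjusted p = 0.138), Serpina3n at 0.97 (adjusted p = 0.0827), Cd44 at 0.33 (adjusted p = 0.327) and S100b at 0.19 (adjusted p = 0.203). Over all genes that fit still called 2692 of 26491 tested. Without L266 and L291 the S100b and Cd44 values were 0.27 and 0.61 (edgeR adjusted p = 0.0556 and 0.0705).

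Within M under CP2, 3 of the 10 members were called, all higher in KO. Ranges that did not overlap are given as a description, since the share of all genes without overlap was not counted. Gfap was 550 to 1735 CPM in KO and 263.3 to 395 CPM in WT, Vim was 77.3 to 189 CPM against 38.3 to 49.4 CPM, and Serpina3n was 26.6 to 113 CPM against 13.8 to 17.2 CPM. None of these ranges overlapped. By edgeR Gfap was 1.68 ± 0.42 higher (adjusted p = 0.00987), Vim 1.33 ± 0.32 (adjusted p = 0.00645) and Serpina3n 1.89 ± 0.48 (adjusted p = 0.0106). The ranges of Cd44 (7.21 to 10.96 against 4.202 to 5.907 CPM) and S100b (132.0 to 161.7 against 101.3 to 131.8 CPM) did not overlap either, though both missed the threshold (edgeR adjusted p = 0.0605 and 0.0554). The 3 members called stand beside 9.99% of all genes. In the same comparison 6 of 8 microglia markers (median 0.43) and 3 of 6 mural and fibroblast markers (Col1a1, Col1a2 and Lum; median of the 6, 0.72) were called higher in KO; their part in these values was not tested. Without the sample above 20 CPM of brainstem markers in this group (L298) the values were as large: Gfap 1.81, Vim 1.44 and Serpina3n 2.04 (edgeR adjusted p = 0.00256, 0.00442 and 0.00421), and 5 members were called. The KO CP2 M samples that were kept still held 5.38 to 8.31 CPM of brainstem markers. WT CP2 M held 0.0442 to 1.67 CPM, with no overlap, and the part of region in these calls was not tested. Without L292 the Serpina3n call was missed (1.48, edgeR adjusted p = 0.0523).

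Within F under CP2, 0 of 10 members passed in edgeR beside 2.00% of all genes, 4 had an unadjusted p under 0.05 and DESeq2 called 0. Gfap was 0.89 ± 0.41 higher and Serpina3n 1.04 ± 0.47 higher (edgeR adjusted p = 0.292 and 0.27), with ranges that overlapped WT. Without the samples with cerebellum or brainstem markers, which leaves 2 in KO CP2 F, the values were −0.07 for Gfap and −0.11 for Serpina3n (edgeR adjusted p = 0.967 and 0.953). The difference between F and M was not called for any member, beside 0.820% of all genes. Its value for Gfap was −0.79 with an interval (±1.96 SE) of −1.93 to 0.35, and Aldh1l1 alone had an unadjusted p under 0.05 (−0.49, edgeR adjusted p = 0.277). DESeq2 called 0 members for it.

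**Figure D3:**
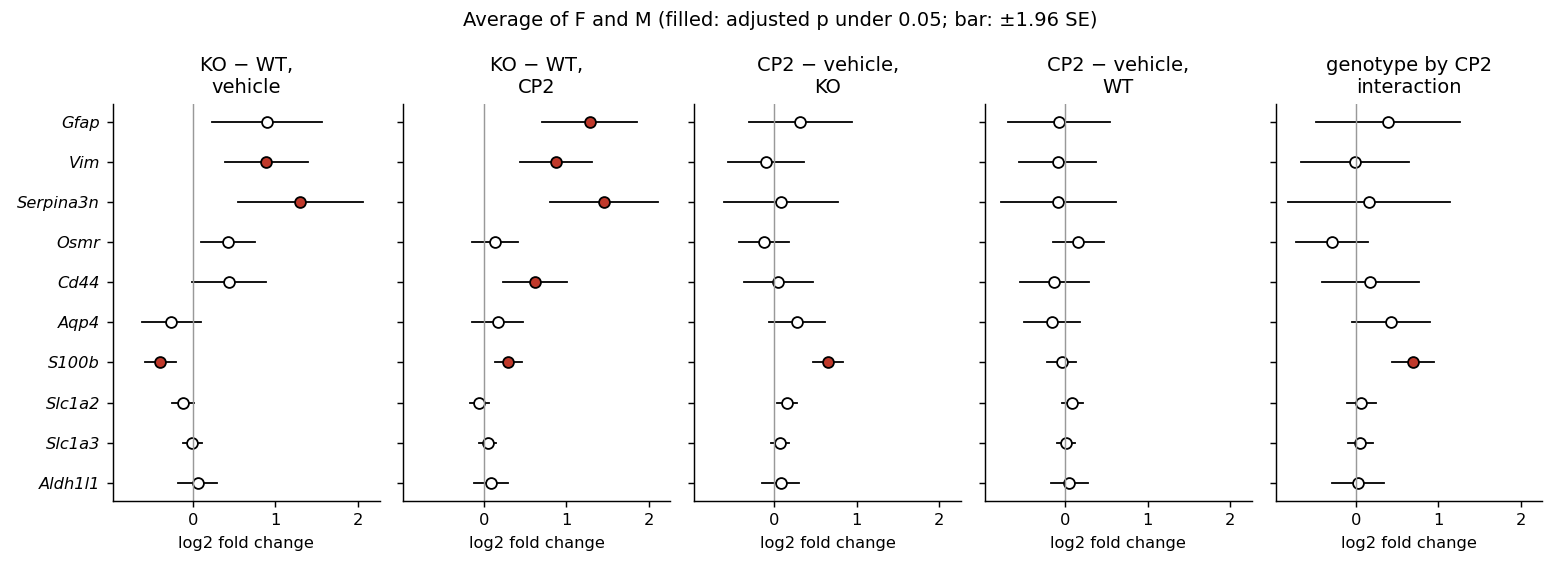
Log2 fold changes of the 10 members (rows) in 5 comparisons averaged over F and M (panels), with bars of ±1.96 SE and filled points for an edgeR adjusted p under 0.05. Filled points are Vim, Serpina3n and S100b for KO against WT with vehicle, Gfap, Vim, Serpina3n, Cd44 and S100b for KO against WT under CP2, and S100b alone for CP2 in KO and for the interaction.

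The transporters and the other identity genes except S100b gave no call in any contrast. Slc1a2, the main glutamate transporter of forebrain astrocytes, ran from 2576 to 3552 CPM in WT and from 1931 to 3489 CPM in KO. Its lowest 4 KO samples were below every WT sample, and its lowest value overall was L279 of KO vehicle F. Its change with vehicle in F was −0.24 ± 0.08 (edgeR adjusted p = 0.0822), and in M it was 0.00 ± 0.11. With the hippocampus marker score as a covariate the F value was called, and likewise without L283. Slc1a3, the second glutamate transporter and the one best known from radial glia and cerebellum, ran from 475 to 672 CPM in WT and from 523 to 685 CPM in KO. Its change for KO against WT averaged over F and M was −0.01 with an interval of −0.12 to 0.11 with vehicle, and 0.05 with an interval of −0.05 to 0.15 under CP2. Changes of more than about those sizes were outside the intervals.

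Aldh1l1, a folate enzyme used as a general astrocyte marker, ran from 58.8 to 84.3 CPM in WT and from 45.6 to 114 CPM in KO. The 4 KO samples above every WT sample were L234, L292, L299 and L310, the same 4 with more than 1000 CPM of Gfap. Aqp4, the water channel of astrocyte endfeet, had a median of 190.9 CPM and a lowest value of 145.0 CPM in WT, and ran from 101 to 316 CPM in KO. Its 3 KO samples above every WT sample were L234, L292 and L310. The averaged KO against WT values were 0.06 and 0.08 for Aldh1l1 and −0.26 and 0.17 for Aqp4, with vehicle and under CP2.

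**Figure D4:**
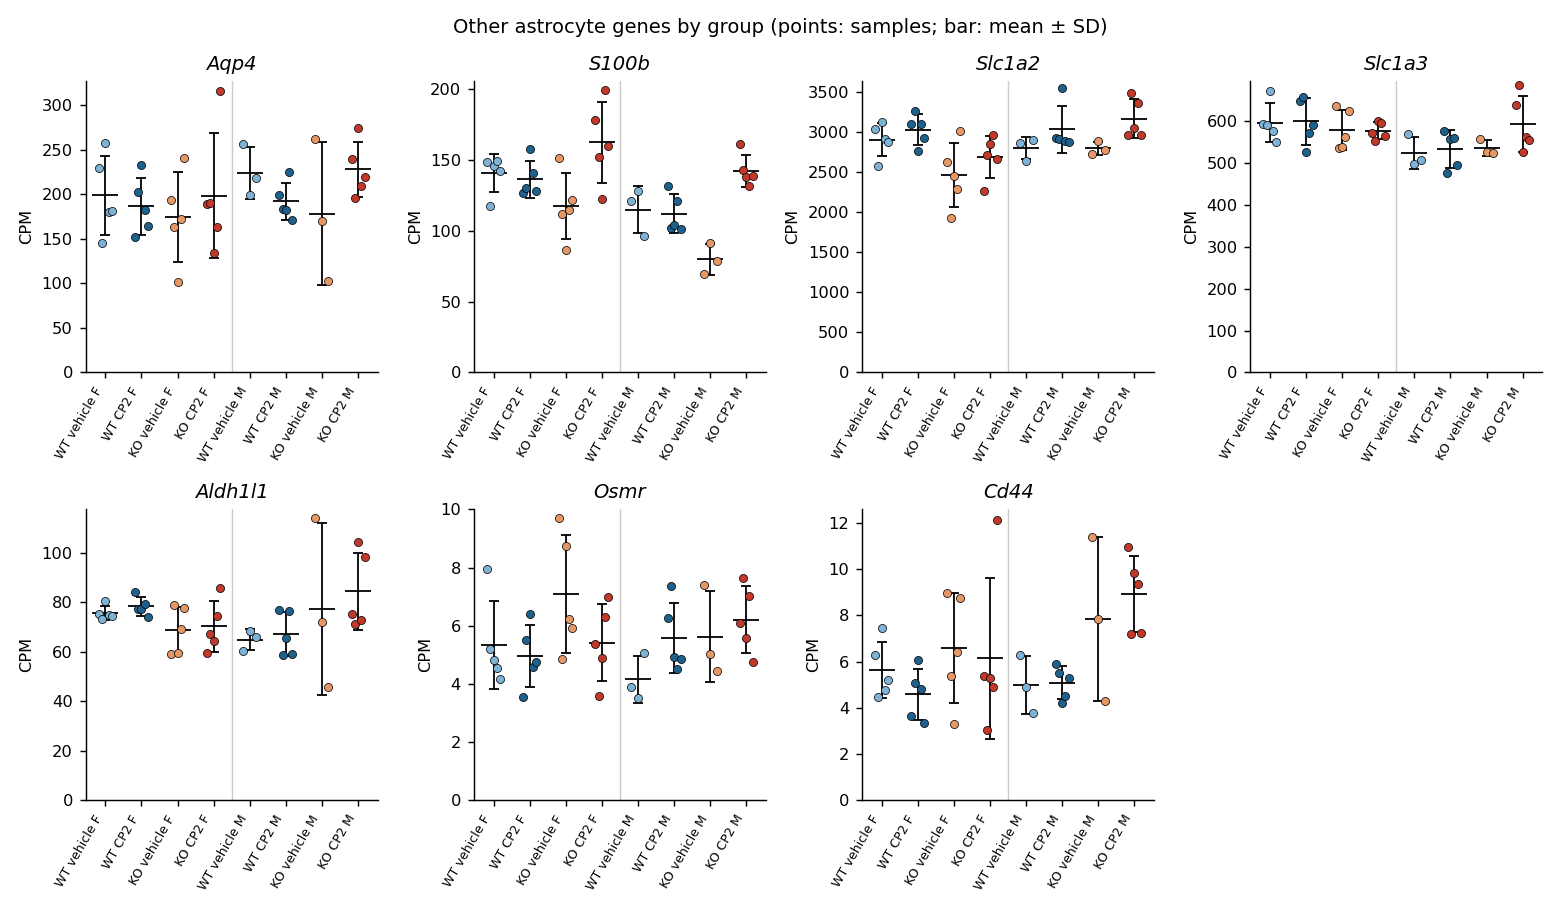
The other 7 members in CPM (vertical axes, starting at 0) in the 8 groups, with 1 point per sample, horizontal bars at the mean and error bars of 1 SD. S100b is lowest in KO vehicle M (69.3 to 91.3 CPM) and high in both KO CP2 groups, and Slc1a3 differs little between groups.

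S100b was the one member called between CP2 and vehicle. It encodes a calcium-binding protein of astrocytes, and cells of the oligodendrocyte lineage make it too. The 3 KO vehicle M values were 69.3, 91.3 and 78.9 CPM, below every value of WT vehicle M (121, 128 and 96.3 CPM) and every other sample of the M groups. The 5 KO CP2 M values were 162, 143, 138, 132.0 and 139 CPM. In KO vehicle F the values were 152, 112, 86.6, 115 and 122 CPM, and in KO CP2 F they were 178, 153, 122, 199 and 159.7 CPM, with overlap. WT vehicle and WT CP2 overlapped in F (118 to 149 and 127 to 158 CPM) and in M (96.3 to 128 and 101 to 132 CPM). When the 8 groups were ordered by mean, KO vehicle M was the lowest, and its samples did not overlap with those of the next group. For the other 9 members every neighbouring pair of groups in that order overlapped.

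In KO, S100b was 0.65 ± 0.09 higher with CP2 than with vehicle averaged over F and M (edgeR adjusted p = 0.00042), 0.84 ± 0.14 in M (adjusted p = 0.00064) and 0.47 ± 0.12 in F (adjusted p = 0.103). The share of all genes called was 3.91% for the average, 5.10% in M and 0.0859% in F. S100b was the only member called in the average and in M, and 0 members were called in F, where 1 had an unadjusted p under 0.05 and DESeq2 called 1, S100b. In WT the averaged value for S100b was −0.04 with an interval of −0.22 to 0.14. The difference between the CP2 effects in KO and WT was 0.69 ± 0.13 (edgeR adjusted p = 0.0198), beside 0.715% of all genes called. That call was lost without L322 of KO vehicle M (edgeR adjusted p = 0.0574), L285 (0.0611) or L300 (0.0616) of WT vehicle M, with values of 0.65 to 0.69. Without the samples with cerebellum or brainstem markers, S100b was 0.54 higher with CP2 in KO on average (edgeR adjusted p = 0.00227), 0.86 in M (adjusted p = 0.000291) and 0.23 in F (adjusted p = 0.458), and 0.58 for the interaction (adjusted p = 0.0207). These comparisons share the KO vehicle samples with the vehicle comparison above.

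The share of reads outside annotated genes differed between KO vehicle and KO CP2 in M and overlapped in F. It was 11.3% to 13.0% in KO vehicle M, 5.18% to 9.06% in KO CP2 M, 6.19% to 11.7% in KO vehicle F and 5.83% to 11% in KO CP2 F, where the sample at 11%, L201, held 178 CPM of S100b. In the M samples of KO the vehicle and CP2 ranges of this share do not overlap, so the share and the treatment cannot be told apart there. With this share as a covariate, S100b was 0.59 higher after CP2 in KO on average (edgeR adjusted p = 0.16), 0.74 in M (adjusted p = 0.161) and 0.61 for the interaction (adjusted p = 0.421). In those 3 comparisons edgeR then called 0 of all 25601 genes. For KO against WT with vehicle on average, S100b became −0.34 (edgeR adjusted p = 0.145), and Vim and Serpina3n did not pass either. The S100b value for KO against WT under CP2 was 0.27 (edgeR adjusted p = 0.039). With vehicle the share was 9.48% to 11.6% in WT M (median 9.55%, KO M 12.1%). It was 5.09% to 7.04% in WT F (median 5.8%, KO F 10.1%). Under CP2 the share was 9.05% to 13.2% in WT M, nearly separate from the 5.18% to 9.06% of KO M. In WT CP2 F it was 5.45% to 7.18%, inside which part of KO CP2 F lay. In the fit with this share the M calls under CP2 were missed for Gfap (1.09, edgeR adjusted p = 0.256), Vim (1.32, adjusted p = 0.0631) and Serpina3n (1.68, adjusted p = 0.134). Their averages over F and M passed in that fit (edgeR adjusted p = 0.0164, 0.0133 and 0.0106).

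**Figure D5:**
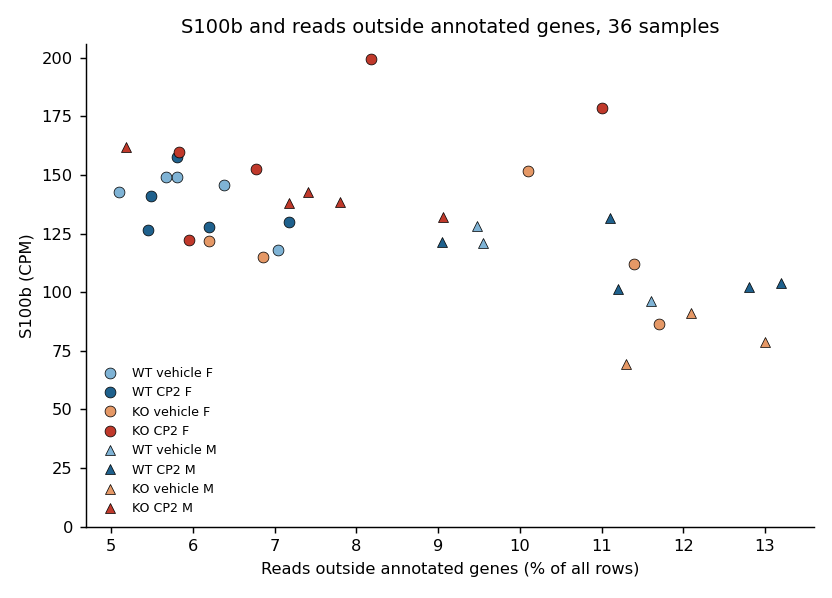
S100b in CPM (vertical axis, starting at 0) against the percentage of reads outside annotated genes (horizontal axis), with 1 point per sample, circles for F, triangles for M, blue for WT and orange or red for KO. The 3 KO vehicle M samples have the lowest S100b among M samples at 11.3% to 13.0%, and KO CP2 M lies at 5.18% to 9.06%.

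Oligodendrocyte and ependymal markers also differed between KO CP2 and KO vehicle. For this comparison the shares of all genes called were 3.91% averaged over F and M, 5.10% within M and 0.0859% within F. In the average, edgeR called 4 of 6 oligodendrocyte markers, each one higher after CP2. These included Mbp, Mobp and Cnp, by 0.39 to 0.42 on the log2 scale. All 6 had positive values and an unadjusted p under 0.05 in edgeR (median 0.40). The summed level of the 6 markers of that list was 7828 to 9221 CPM in KO vehicle M and 8210 to 15120 CPM in KO CP2 M, and none of the 6 was at 0. Of 4 ependymal markers, 1 rose on average (Rarres2, 0.73), 4 rose within M (median 1.31) and 0 were called in F; their sum was 17.3 to 29.6 CPM in KO vehicle M and 24.4 to 57.2 CPM in KO CP2 M. Of 8 microglia markers, 4 rose on average (Itgam, Cx3cr1, C1qa and P2ry12), 3 within M (median 0.36) and 0 in F. Within M, Mbp was the 1 called of 6 oligodendrocyte markers (0.58), and 0 were called in F. The part of these cells in the S100b result was not tested.

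The inhibitor had no called effect on the reactivity genes. In KO the averaged CP2 against vehicle values were 0.32 ± 0.32 for Gfap, −0.10 ± 0.24 for Vim, 0.08 ± 0.35 for Serpina3n, −0.12 ± 0.16 for Osmr and 0.05 ± 0.21 for Cd44. The interval for Gfap ran from −0.30 to 0.94 and that for Serpina3n from −0.61 to 0.77, so changes of over 1.5-fold in either direction lay inside the latter. In WT they were −0.07 ± 0.31, −0.09 ± 0.24, −0.08 ± 0.36, 0.16 ± 0.16 and −0.13 ± 0.21 in the same order. In WT, edgeR called 0 of all 25601 genes (0%) in F, in M and on average, with 679, 777 and 1031 genes at an unadjusted p under 0.05. DESeq2 called 0, 1 and 0 genes there, and for the members both tools called 0 in WT, with none at an unadjusted p under 0.05. The F against M difference of the CP2 effect was called for 0 members in KO (0.691% of all genes called; S100b at −0.37, edgeR adjusted p = 0.337) and for 0 in WT (0% called). DESeq2 called 0 members in both.

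Other astrocyte genes, from lists of known markers, were called lower more than higher with vehicle. Of 20 further identity genes, 6 were lower and 0 higher in KO with vehicle on average, with a median of −0.17 against 0.02 over all genes. Over all genes 6.67% were called in this contrast, 972 lower and 736 higher. The 3 with the smallest adjusted p were Gpr37l1, an orphan receptor of astrocytes (−0.41, edgeR adjusted p = 0.000331), Slc7a10, a serine and glycine transporter (−0.48, adjusted p = 0.00117), and Ntsr2, a neurotensin receptor (−0.35, adjusted p = 0.00207). For Gpr37l1 and Ntsr2 every KO sample was below every WT sample, within F and within M. Like the other ranges without overlap given here, this is only a description. The share of all genes without overlap was not counted, the genes were named for their small adjusted p, and M had 3 samples a group. Under CP2, 2 of the 20 were higher (Clu and Hepacam, 0.18 each) and 1 lower (Slc7a10, −0.37), with a median of 0.03. This count stands beside 11.6% of all genes called. With CP2 in KO, 3 of 20 rose on average (Ndrg2 0.34, Cldn10 0.34 and Mlc1 0.25) and 0 fell, beside 3.91% of all genes called. Within M 6 of 20 rose and 0 fell (median 0.28, beside 5.10% of all genes). Within F 0 were called (median −0.03, beside 0.0859%). For KO against WT under CP2, 5 of 20 were higher and 1 lower in M (median 0.18, beside 9.99%), and 0 were called in F (median −0.13, beside 2.00%).

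Averaged over F and M, 3 lists of reactive genes gave 0 to 1 call each with vehicle and 1 to 3 each under CP2, all higher in KO. The shares of all genes called were 6.67% with vehicle and 11.6% under CP2. Of 8 other genes seen in most reactive states, 0 were called in KO with vehicle (1 at an unadjusted p under 0.05) and 1 was higher under CP2, Aspg (0.62, edgeR adjusted p = 0.0337). Lcn2 and Cxcl10, which are often the strongest of that list in injury, were at most 2.75 and 1.07 CPM in any sample. Of 11 genes of the neuroinflammatory type, H2-D1, a class I histocompatibility gene, was higher in KO with vehicle (0.36, edgeR adjusted p = 0.0116), and H2-D1, Ggta1 and Psmb8 were higher under CP2 (0.48, 0.53 and 0.46). Of 12 genes of the ischemia type, 0 were called with vehicle (2 at an unadjusted p under 0.05), and Cd109 (0.81), S100a10 (0.43) and Tgm1 (2.02) were higher under CP2. Tgm1 was listed at 0 in some samples and reached 1.36 CPM at most, so its fitted value depends on very few reads. Within M under CP2, 3 of 11 genes of the neuroinflammatory type and 3 of 12 of the ischemia type were higher (medians 0.60 and 0.60). Of the 8 other genes 0 were called there (median 0.15), beside 9.99% of all genes. Within F under CP2, 0 genes of the 3 lists were called, beside 2.00% of all genes.

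In the pathway from Osmr to STAT3, no gene was called higher in KO than in WT averaged over F and M. Of 11 tested genes for the cytokines, receptors, kinases and targets, 1 was lower in KO with vehicle and under CP2, the ciliary neurotrophic factor receptor Cntfr (−0.33 and −0.15). This 1 gene stands beside 6.67% of all genes called with vehicle and 11.6% under CP2. For the comparisons within M that follow, the shares were 9.99% for KO against WT under CP2 and 5.10% for CP2 in KO. Within M, the kinase gene Tyk2 was lower in KO under CP2 (−0.39, edgeR adjusted p = 0.0201). Between KO CP2 M and KO vehicle M, Cntfr was called higher with CP2 (0.27, edgeR adjusted p = 0.049) and Tyk2 lower (−0.42, adjusted p = 0.0448). Stat3 itself, Socs3 and the shared receptor chain Il6st were among those not called, and Il6 did not pass the filter on low counts, with at most 0.305 CPM. Osmr ranged from 3.498 to 7.952 CPM in WT and from 3.57 to 9.71 CPM in KO, where its highest samples, L246 and L281, were among the 5 KO samples with no high Gfap, Vim or Serpina3n.

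Markers of other cells that make some of these genes gave few calls with vehicle. The share of all genes called, averaged over F and M, was 6.67% with vehicle and 11.6% under CP2. It was 4.96% within F with vehicle and 9.99% within M under CP2. Averaged over F and M with vehicle, 0 of 6 endothelial, 0 of 6 mural and fibroblast, 0 of 6 oligodendrocyte and 0 of 6 neuron markers were called in edgeR. The numbers at an unadjusted p under 0.05 were 1, 0, 2 and 1, and 1 of 8 microglia markers was lower (Tmem119, −0.34) and 1 of 4 ependymal markers was lower (Rarres2, −0.59). Within F with vehicle, the endothelial marker Slco1a4 was called higher (0.53, edgeR adjusted p = 0.0481), and Rarres2 (−0.69) and the hippocampus marker Spink8 (−1.39) lower. On average under CP2, 4 of 8 microglia markers were higher in KO (Trem2 0.59, Itgam 0.46, P2ry12 0.40 and Csf1r 0.20), with Lum of 6 mural and fibroblast markers (0.56) and Mbp of 6 oligodendrocyte markers (0.29). Summed levels of the 8 microglia markers were 197 to 359 CPM in KO and 218 to 308 CPM in WT, with none at 0. Among the remaining lists under CP2 averaged over F and M, 0 of 3 oligodendrocyte precursor, 0 of 4 choroid plexus, 0 of 7 hippocampus and 0 of 4 striatum markers were called in edgeR (0, 0, 1 and 0 at an unadjusted p under 0.05), and 1 of 6 cortex markers was lower (Lamp5, −0.63). Within M, the hippocampus marker Dsp was called lower under CP2 (−1.66, edgeR adjusted p = 0.0427). The part of these cells in the values of Vim, Cd44 and Serpina3n was not tested.

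Over the 36 samples, the genes most like Gfap included both other filament and acute phase members. Among 15419 genes with a mean of at least 1 CPM, the highest Pearson correlations of log2 CPM with Gfap were Serpina3n (0.905), S100a6 (0.893), Vim (0.890), Slc14a1 (0.890) and Serpinf1 (0.886). After the group means were subtracted they were Olfml3 (0.925), Igfbp5 (0.901), Kcne1l (0.890), Serpinf1 (0.875) and Aqp4 (0.868). For Serpina3n they were Vim (0.932), C4b (0.914), Gfap, Msn (0.848) and Dhrs1 (0.846). These are descriptions over samples that share libraries and groups.

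The identity genes did not follow Gfap as a block. Aldh1l1 (0.702) and Aqp4 (0.643) followed it over the 36 samples, S100b (0.157) and Slc1a3 (0.106) hardly, and Slc1a2 not (−0.003). The genes most like Slc1a2 were 2610507B11Rik (0.810), Dlg2 (0.803), Sptbn1 (0.800), Mfap3l (0.766) and 1700020I14Rik (0.761), none of them a member. Between the transporters Slc1a2 and Slc1a3 the correlation was 0.321, and 0.500 after the group means were subtracted. Cd44 followed Gfap at 0.779 and Osmr at 0.323.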

How the data were processed

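PolyA RNA of 36 mouse brain samples was sequenced. Per the submitters' processing notes, reads were aligned with STAR to GRCm39 and counted with HTSeq; versions, annotation release and strand setting are not given in the sources used here, so overlapping and antisense genes are uncertain, as is Serpina3n, which belongs to a cluster of similar genes. The deposited values are raw counts per Ensembl gene. The 5 summary rows of the counter were left out and used only for the percentage of reads outside genes (5.09% to 13.2%). Symbols and exon lengths came from GENCODE M21, which named 91.4% of rows and 97.2% of counts. All 36 sample columns were matched by title.

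Genes were tested with edgeR 4.0.16 in R 4.3.3 (TMM, filterByExpr on the 8 groups, robust quasi-likelihood fit over all 36 samples) in 17 contrasts, with averages weighting F and M equally and Benjamini-Hochberg adjustment within each contrast over 25601 genes. The functions were tested on simulated data. The SE was derived from the fold change and the F statistic, and an interval is ±1.96 SE. Log2 CPM for correlations used a prior count of 2. Alternatives were DESeq2 1.42.0, RLE size factors, no filter, only the groups compared, 3 covariates, L266 and L291 left out together and each sample left out. Leaving out samples with more than 20 CPM of cerebellum or brainstem markers was added after seeing the data. Members and lists were chosen with earlier results of these data known. All members are named, from other lists at most 3 called genes with the smallest adjusted p per contrast, and for Gfap, Serpina3n and Slc1a2 the 5 genes with the highest correlation. A 4th gene of a list, Lcn2, Cxcl10, Stat3, Socs3, Il6st and Il6 were named after their values were seen. No sample number was shared between groups, so no pairing was used. All 20 lists gave at most 6 called genes in any averaged contrast. Region markers served as tissue checks: choroid plexus markers summed to 190 to 3385 CPM, and 4 hypothalamus genes, a list added after seeing the data, to 15.6 to 223 CPM in KO and 10.1 to 269 CPM in WT.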

Additional observations from a re-analysis of the deposited data

Results flagged for a closer look

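In 60 pairs of a member and a group of 5 samples, 6 had a sample far from the rest of its group; chance flags about 1 in 20 such groups. Sample L234 of KO CP2 F was far above its group in Gfap (1605 CPM, the rest 290 to 597 CPM) and in Cd44 (12.15 CPM, the rest 3.04 to 5.38 CPM), and it also held 79.1 CPM of brainstem markers. Aldh1l1 in L278 of WT vehicle F stood at 80.3 CPM (the rest 73.4 to 75.2 CPM), and that sample held 32.9 CPM of brainstem markers. S100b in L277 of WT vehicle F was 118 CPM (117.8, the rest 142.6 to 149.1 CPM). Slc1a2 in L263 of WT CP2 M was 3552 CPM (the rest 2875 to 2928 CPM). Osmr in L252 of WT vehicle F was 7.95 CPM (the rest 4.15 to 5.20 CPM). Groups of 3 samples were not examined.

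The CP2 effect on S100b differed between KO and WT by 0.69 on the log2 scale (edgeR adjusted p = 0.0198). It did not pass with the percentage of reads outside genes as a covariate (edgeR adjusted p = 0.421), a fit in which no gene was called.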

How the results depend on the processing

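No change in direction was seen among the called members under any alternative. Counts of members called that moved by over 1.5 times were the following. With DESeq2 they were, for KO against WT, 3 in M with vehicle (edgeR 0), 5 under CP2 in M (edgeR 3) and 1 for CP2 in KO F (edgeR 0). With only the groups compared they were 1 with vehicle in M, 1 for the vehicle average (otherwise 3) and 5 under CP2 in M. With no filter on low counts the vehicle average gave 1. When the percentage of reads outside genes entered as covariate, the count was 0 for the vehicle average, for KO against WT under CP2 in M, for CP2 in KO in M and on average, and for the interaction; the cause was not tested. With the hippocampus marker score as a covariate, KO against WT with vehicle in F gave 1, Slc1a2. Without L266 and L291 the CP2 average gave 3 (otherwise 5). Without the samples with cerebellum or brainstem markers it gave 0, and CP2 in M gave 5. Leaving out 1 sample at a time gave 0 to 1 with vehicle in F, 0 to 3 for the vehicle average, 0 to 1 for CP2 in KO F, 1 to 2 for CP2 in KO M and 0 to 1 for the interaction.

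Smaller moves included the loss of Serpina3n in the vehicle average with the title number as covariate (1.26, edgeR adjusted p = 0.0554) and of Cd44 in the CP2 average with the title number (0.58, adjusted p = 0.06) or the percentage outside genes (0.45, adjusted p = 0.144) as covariate or with no filter (0.62, adjusted p = 0.0784). Cd44 under CP2 passed in 4 of 9 alternatives and in 11 of 20 fits with 1 sample left out (0.41 without L234, edgeR adjusted p = 0.113; it also failed without L228, L311, L266, L292, L298, L262, L263 or L267). Serpina3n with vehicle passed in 4 of 8 alternatives and 7 of 16 such fits and Vim in 10 of 16. The lowest count of any member in a sample was 166, and 2 of the groups held 3 samples.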
